A study of Mus musculus with 13 samples.

Results

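The genes described here are Myc and 9 immediate early genes of the growth-factor response, namely Egr1, Egr2, Egr3, Nr4a1, Ier2, Ier3, Ier5, Zfp36 and Btg2. They were taken by gene symbol from the deposited tables, which give 10 of 10 among 23845 genes, and all 10 had enough reads to be tested. RNA-seq was compared between 7 JNK knockout and 6 wild-type (WT) cell lines, each grown out of a mouse mammary tumour of the strain FVBN/J, in a study of HER2-driven breast cancer. JNK kinases phosphorylate c-Jun and related factors, and HER2 is a receptor tyrosine kinase encoded by Erbb2. The genotype label is given without the genes or exons deleted, the cells in which this was done, or the means by which HER2 was expressed. All 13 lines were kept in the same medium, which held EGF at 20 ng/ml, insulin at 10 µg/ml and serum at 10%, after 2 passages on collagen I with serum at 2%. No time since the last change of medium is given, so whether the levels are steady or follow a recent change of medium is not known. Each sample is 1 line. The titles of WT replicates 4 and 5 share a number, and whether they come from 1 animal is not given. The p-values thus cover the spread among the lines, which may be technical in part.

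Immediate early genes are transcribed within minutes of a growth-factor signal without new protein synthesis. ERK, JNK and p38 kinases act on transcription factors already present, among them the ternary complex factors that bind with serum response factor at the CArG box of many of these promoters. The messages are mostly short-lived, so their level follows signalling closely. MYC, a transcription factor that pairs with MAX at E-boxes, drives genes of ribosome making and growth, and in mammary epithelium it is a frequent partner of HER2 in tumours.

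The libraries held 38298603 to 46689811 expected counts. Mapk8 and Mapk9, which encode JNK1 and JNK2, served as the check of the labels. Mapk8 was 4.33 to 8.33 CPM in the 7 knockout lines and 23.9 to 37.3 CPM in the 6 WT lines. Mapk9 was 8.90 to 24.7 CPM in knockout lines and 55.0 to 73.1 CPM in WT lines, so neither gene overlapped between the groups. CPM is a gene's reads relative to the size of its library after TMM scaling. Of the epithelial markers Epcam, Cdh1, Krt8, Krt18 and Krt19, all 5 were tested, 2 fell and 0 rose, and the summed level was 1050 to 3649 CPM in knockout lines and 5275 to 6179 CPM in WT lines. Of the basal markers Krt5, Krt14, Krt17, Trp63 and Acta2, 4 rose, and they summed to 563 CPM up to 26500 CPM (replicate 2) in knockout lines and 54.2 to 248 CPM in WT lines. Of the fibroblast markers 6 of 7 were tested and 2 fell, and they summed to 3.05 to 28.2 CPM in knockout lines and 11.7 to 419 CPM in WT lines, where WT replicate 3 held the highest value and the other WT lines at most 57.9 CPM. Of the immune markers, Ptprc, Cd3e and Itgam had too few reads for a test, and Cd68 was tested and not called. No endothelial marker of 4 was tested. The part of these marker differences in the results was not tested, and in bulk RNA fewer cells of a type and less RNA per cell cannot be told apart.

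Promoter windows from RefSeq (GRCm38.p6) were on hand for 6 of the 10 genes. The 250 bases before the annotated start are printed for 4 of them, with the matches of the searched motifs in capitals. Ier3 is shown as the gene that fell, Btg2 as the gene with the largest difference that missed the threshold, and Egr2 and Zfp36 as members of the gene pairs that varied together among lines.
Ier3, chr17:35821463-35821712, plus strand: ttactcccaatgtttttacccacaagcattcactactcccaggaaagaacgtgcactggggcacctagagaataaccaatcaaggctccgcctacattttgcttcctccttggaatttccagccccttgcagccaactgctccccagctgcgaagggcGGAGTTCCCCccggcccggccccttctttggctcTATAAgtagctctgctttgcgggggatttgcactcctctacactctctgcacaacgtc
Btg2, chr1:134079156-134079405, minus strand: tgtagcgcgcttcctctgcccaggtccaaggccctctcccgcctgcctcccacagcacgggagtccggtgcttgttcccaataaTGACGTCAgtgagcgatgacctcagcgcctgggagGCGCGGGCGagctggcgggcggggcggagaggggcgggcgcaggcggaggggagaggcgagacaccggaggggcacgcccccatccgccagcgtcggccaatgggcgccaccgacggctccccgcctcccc
Egr2, chr10:67537619-67537868, plus strand: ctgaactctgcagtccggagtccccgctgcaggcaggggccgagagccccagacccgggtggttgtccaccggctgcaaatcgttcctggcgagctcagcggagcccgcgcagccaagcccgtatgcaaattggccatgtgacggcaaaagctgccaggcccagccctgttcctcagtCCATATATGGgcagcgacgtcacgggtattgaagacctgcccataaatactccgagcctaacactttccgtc
Zfp36, chr7:28379229-28379478, minus strand: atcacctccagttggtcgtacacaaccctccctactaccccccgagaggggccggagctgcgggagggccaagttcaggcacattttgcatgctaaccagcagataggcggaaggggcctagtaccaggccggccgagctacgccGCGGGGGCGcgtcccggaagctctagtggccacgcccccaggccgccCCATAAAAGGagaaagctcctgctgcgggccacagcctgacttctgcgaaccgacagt
Both strands were searched, and no matches overlapped. Egr2 and Zfp36 each held a CArG box, the binding site of serum response factor, 72 and 58 bases before the start, a motif found in 1.47% of the 32851 windows in the table. Ier3 held a kB site, the motif of NF-kB, 92 bases before the start (3.9% of windows) and a TATA motif, TATAA (22.8% of windows). Btg2 held the cAMP response element TGACGTCA, also bound by ATF factors, 166 bases before the start (1.55% of windows). The EGR motif GCGNGGGCG (4.7% of windows) was found in Btg2, Zfp36 and Nr4a1, and Ier5 held TATAA alone. Neither the AP-1 motif TGANTCA (6.75% of windows) nor the E-box CACGTG (6.02%) was in any of these 6 windows. A match describes the letters and says nothing of binding. For Egr2, which has 5 windows in the table, that of the transcript counted by the authors was used.

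Of the 10 genes, Myc rose and Ier3 fell in the knockout lines, and the other 8 did not pass the test. The test was edgeR's quasi-likelihood F test over all 13058 genes with enough reads, adjusted by Benjamini-Hochberg with a threshold of 0.05, which called 4.33% of all tested genes higher and 4.17% lower. With 10 genes, 1 in each direction is too small a count to set apart from that background (8.51% of all tested genes changed in either direction). The same shares are the background for the counts of called genes in the lists below, and no list was tested as a set. The median log2 fold change, knockout over WT, was -0.05 for the 10 genes and 0.01 for all genes tested, and 5 of the 10 were positive. At an unadjusted p under 0.05 stood 4 of the 10 genes (26.3% of all tested genes). Myc and Ier3 were also the only members whose groups did not overlap in CPM (4.05% of all tested genes, 2.08% with knockout lines higher and 1.97% with knockout lines lower).

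**Figure D1:**
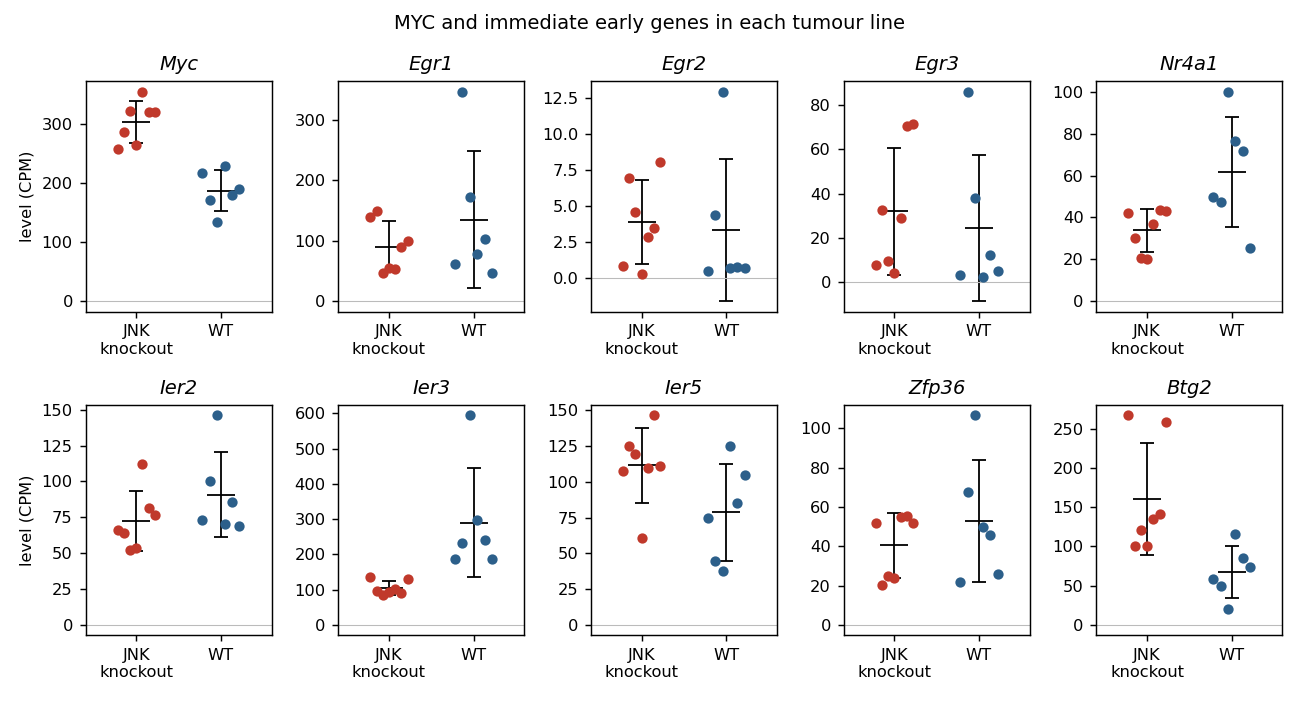
Level of each of the 10 genes in CPM (y axis, linear, a scale per panel) in 7 JNK knockout lines (red, left) and 6 WT lines (blue, right), where each point is 1 line and the bar is the mean with its SD. Myc lies higher in every knockout line (258 to 355 CPM) than in any WT line (135 to 230 CPM) and Ier3 lower, while for the other 8 genes the groups overlap, and WT replicate 2 is highest for Egr1 and Egr3 and WT replicate 3 for Egr2 and Zfp36.

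**Figure D2:**
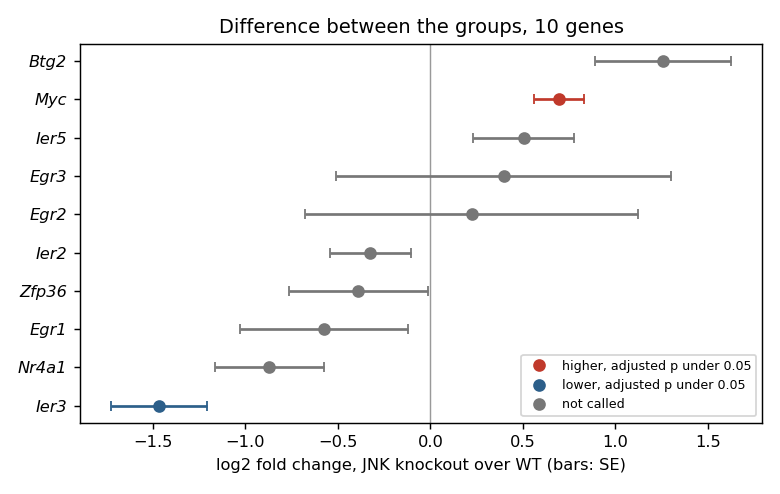
Log2 fold change of each of the 10 genes, JNK knockout over WT (x axis), with its SE as bars. Myc (0.70) and Ier3 (-1.47) are coloured as called, and the bars of Egr2 and Egr3 are the widest.

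Myc (chromosome 15, 61985341 to 61990361, on GRCm38.p6 as for all positions) had a lowest, median and highest level of 258, 320 and 355 CPM in knockout lines and of 135, 186 and 230 CPM in WT lines. Every knockout line lay above every WT line, and knockout replicates 1 and 4 lay closest to the WT range. The mean was 304 ± 35.2 CPM in knockout lines (SD, n = 7) and 187 ± 34.1 CPM in WT lines (SD, n = 6). On the log2 scale the fold change was 0.70 (SE 0.14, edgeR adjusted p = 0.010). The call held in all 13 fits that left out 1 line (log2 fold change 0.61 to 0.76), and also without WT replicate 3 and knockout replicate 2, the lines with the highest summed fibroblast and basal markers (0.63, edgeR adjusted p = 0.017). On log2(TPM + 1) Myc was not called (0.48, limma adjusted p = 0.053). TPM is abundance per transcript length at a common sum, and on that scale the median of all genes was -0.19, so that Myc stood 0.67 above it. In TPM the groups overlapped, at 177 to 240 TPM in knockout lines and 99.8 to 189 TPM in WT lines. Knockout replicate 5, the highest in CPM, was the lowest knockout line in TPM.

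The only tested gene starting within 1 Mb of Myc was Pvt1, a long noncoding RNA gene whose start lies 52.6 kb after that of Myc and which is often gained together with it in tumours. Pvt1 was 9.98, 15.1 and 21.8 CPM (lowest, median and highest) in knockout lines and 3.34, 9.43 and 10.8 CPM in WT lines. Only knockout replicate 2 lay inside the WT range. With a log2 fold change of 0.90 (SE 0.27) it missed the threshold (edgeR adjusted p = 0.057), and was called without knockout replicate 2 (edgeR adjusted p = 0.043).

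Of 21 tested partners and regulators of MYC 1 rose and 1 fell, with a median log2 fold change of 0.23. In fits that left out 1 line, 0 to 3 rose and 0 or 1 fell, and the median was 0.07 without knockout replicate 6. On log2(TPM + 1) it was -0.07, where the median of all genes was -0.19. Mlx, the partner of the glucose-sensing MYC relatives, rose 1.65-fold (49.8 ± 13.1 CPM in knockout and 30.1 ± 6.14 CPM in WT lines, edgeR adjusted p = 0.039, called in 4 of the 13 leave-one-out fits). Mlxipl, which encodes one of those relatives, ChREBP, was 0.157 to 0.757 CPM in knockout lines and 0.308 to 7.79 CPM in WT lines (log2 fold change -2.54, SE 0.74, edgeR adjusted p = 0.049, called in 3 such fits, those without WT replicates 1, 4 and 6). WT replicates 2, 3 and 5 held all the WT values above 1 CPM. Max, the obligate partner, had 108 CPM in knockout and 80.8 CPM in WT lines on average and missed the threshold (log2 fold change 0.42, edgeR adjusted p = 0.051). The paralogue Mycn had 0.30 CPM in knockout and 1.81 CPM in WT lines, and Mycl 3.44 and 1.41 CPM, neither past the threshold (edgeR adjusted p = 0.14 and 0.25).

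Of 34 known MYC targets of growth and ribosome making, 5 rose and 0 fell, and 29 had a positive log2 fold change (6606 of all 13058 genes tested had). The median was 0.33, beside 0.01 for all genes. Without WT replicate 3 and knockout replicate 2 the count was 3, and among fits that left out 1 line it was 3 without WT replicate 2, 3 or 5 or knockout replicate 1, 3, 5 or 7, and 8 without knockout replicate 6. Srm, the spermidine synthase gene, was 53.7, 92.5 and 140 CPM (lowest, median and highest) in knockout lines and 33.4, 39.2 and 52.1 CPM in WT lines, with no overlap (log2 fold change 1.15, SE 0.25, edgeR adjusted p = 0.015). Ptma, which encodes the chromatin protein prothymosin alpha, rose 1.68-fold without overlap, with 1537 ± 329 CPM in knockout and 915 ± 102 CPM in WT lines (edgeR adjusted p = 0.012). Npm1, the gene for the nucleolar protein nucleophosmin, rose 1.68-fold (edgeR adjusted p = 0.019). Nop16, for a nucleolar protein of ribosome assembly, rose by 0.59 on the log2 scale (edgeR adjusted p = 0.038). The fifth was Pa2g4 (edgeR adjusted p = 0.047). Nop16 was called in 5 of the 13 leave-one-out fits, and Srm, Ptma and Npm1 in all 13. Npm1 and Ptma have processed copies in the genome, so their reads may be shared among copies. On log2(TPM + 1) only 1 of the 34 genes was called, Srm, and the median of the list was 0.16, beside -0.19 for all genes. The 5 genes stood 0.55 to 1.03 above the median of all genes there. They were picked by the edgeR call in the same lines, so this is no separate evidence. Other textbook targets did not pass, among them Odc1, the ornithine decarboxylase gene (281 CPM in knockout and 381 CPM in WT lines, edgeR adjusted p = 0.54), and Ncl, which encodes nucleolin (947 and 574 CPM, edgeR adjusted p = 0.051). The summed level of the targets was 9657 to 15140 CPM in knockout lines and 7941 to 9704 CPM in WT lines, where only knockout replicate 6 lay within the WT range.

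Of 10 tested genes known to be repressed by MYC, 2 rose and 0 fell (median log2 fold change -0.15). None was called higher without WT replicate 2 or 5 or knockout replicate 1 or 7, and 1 fell without knockout replicate 2, 6 or 7. Leaving out knockout replicate 2 moved the median to -0.64, and leaving out WT replicate 4 turned it to 0.06. On log2(TPM + 1) 1 of the 10 genes rose and 3 fell. The median there was -0.34, where that of all genes was -0.19. By limma-voom with sample weights 2 rose and 2 fell. Cdkn1a, which encodes the cell cycle inhibitor p21, was 434, 605 and 872 CPM (lowest, median and highest) in knockout lines and 149, 336 and 429 CPM in WT lines. The groups did not overlap, though knockout replicate 3 and WT replicate 6 nearly met (log2 fold change 0.98, SE 0.25, edgeR adjusted p = 0.031, called in 9 of the 13 leave-one-out fits). Ndrg2, a stress and differentiation gene, rose 4.85-fold from a low level (edgeR adjusted p = 0.032, called in 6 such fits). Of 13 proliferation genes none was called by edgeR (1 at an unadjusted p under 0.05), 1 had a positive log2 fold change and the median was -0.25. Leaving out 1 line gave a median of -0.36 (without WT replicate 5) to -0.10 (without knockout replicate 7). On log2(TPM + 1) 1 of the 13 fell and the median was -0.51, where that of all genes was -0.19. With limma-voom and sample weights 1 fell. Mki67, the gene of the Ki-67 antigen, had 130 ± 42.7 CPM in knockout and 216 ± 95.8 CPM in WT lines (edgeR adjusted p = 0.16). Pcna, which encodes the replication clamp, had 219 ± 95.8 CPM in knockout and 298 ± 49.2 CPM in WT lines (edgeR adjusted p = 0.28). It was called lower in 3 of 27 alternatives, among them limma on log2(TPM + 1) and limma-voom with sample weights.

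**Figure D3:**
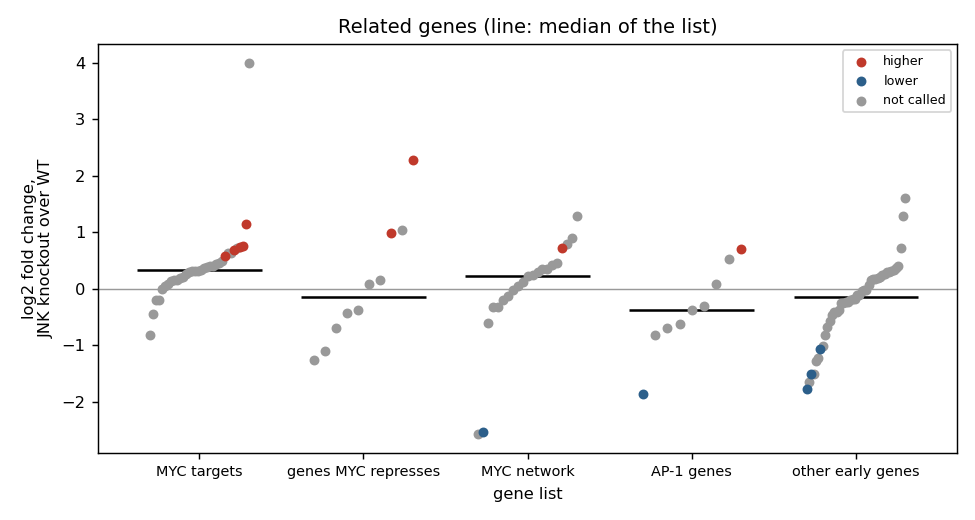
Log2 fold change, JNK knockout over WT (y axis), of every tested gene of 5 related lists (x axis), where each point is 1 gene, red and blue points passed the test and the black line is the median of the list. Of the MYC targets 29 of 34 lie above 0 and 5 are called higher, and the median of the AP-1 genes is -0.38 (-0.64 to -0.24 when 1 line is left out).

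The EGR genes encode zinc finger transcription factors that are among the fastest to respond to ERK signalling, and none of the 3 differed detectably between the groups. Egr1 (chromosome 18, 34861207 to 34864956) had 46.8, 90.4 and 149 CPM (lowest, median and highest) in knockout lines and 46.3, 90.6 and 347 CPM in WT lines. The medians were close, and WT replicates 2 and 3 lay above every knockout line. The log2 fold change was -0.58 (SE 0.45, edgeR adjusted p = 0.45) and -0.03 without WT replicate 2. Egr3 (chromosome 14, 70077317 to 70082613) had 3.81, 29.0 and 71.4 CPM in knockout lines and 2.05, 8.51 and 86.3 CPM in WT lines. Knockout replicates 6 and 7 and WT replicate 2 were all above 70 CPM, and 3 knockout and 3 WT lines were below 10 CPM, so the lines of each genotype spread over the same range. The log2 fold change was 0.40 (SE 0.90, edgeR adjusted p = 0.82) and 1.42 without WT replicate 2. Egr2 (chromosome 10, 67534469 to 67542188), known best for its part in Schwann cells and T cells, was low, with 0.254, 3.46 and 8.08 CPM in knockout lines and 0.425, 0.718 and 12.96 CPM in WT lines. In 4 of 6 WT lines it was below 1 CPM, and in 5 of 7 knockout lines above 2 CPM. Its log2 fold change was 0.22 (SE 0.90, edgeR adjusted p = 0.90), and 1.48 without WT replicate 3. The approximate 95% intervals of the log2 fold change ran from -1.58 to 0.42 for Egr1, from -1.76 to 2.20 for Egr2 and from -1.59 to 2.38 for Egr3, so that changes of several fold either way in Egr2 and Egr3 are within the error. The corepressors of EGR factors, Nab1 and Nab2, and Srf, the gene of serum response factor, were not called either (edgeR adjusted p = 0.49, 0.35 and 0.61). Of the 8 tested genes of that list, Mkl1 and Mkl2, which encode actin-sensing coactivators of serum response factor, had the smallest p. Mkl1 had 60.9 ± 18.1 CPM in knockout and 95.5 ± 26.9 CPM in WT lines, and Mkl2 47.9 ± 7.16 and 61.2 ± 7.62 CPM (edgeR adjusted p = 0.081 and 0.10).

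Nr4a1 (chromosome 15, 101253902 to 101274795), which encodes the orphan nuclear receptor NUR77, had 20.3, 36.8 and 43.5 CPM in knockout lines and 25.3, 60.6 and 100 CPM in WT lines. All WT lines but replicate 6 lay above every knockout line. The mean was 33.8 ± 10.2 CPM in knockout and 61.8 ± 26.4 CPM in WT lines, and at a log2 fold change of -0.87 (SE 0.29) the threshold was missed (edgeR adjusted p = 0.082). Without WT replicate 6 it passed (-1.03, edgeR adjusted p = 0.036), as it did with DESeq2 (adjusted p = 0.035) and on log2(TPM + 1) (limma adjusted p = 0.047), where it stood -0.81 from the median of all genes. Its relatives Nr4a2 (13.03 CPM in knockout and 17.3 CPM in WT lines) and Nr4a3 (0.43 and 0.58 CPM) were not called (edgeR adjusted p = 0.60 and 0.79).

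The IER genes were named for their early response and do not form 1 protein family. Ier3 (chromosome 17, 35821713 to 35822911), also known as IEX-1, encodes a small protein that acts on cell survival and ERK signalling and is a target of NF-kB. It had 84.4, 95.3 and 137 CPM in knockout lines and 186, 236 and 595 CPM in WT lines. Every knockout line lay below every WT line, and WT replicate 3 stood far above the other WT lines, which reached 298 CPM. The mean was 105 ± 20.5 CPM in knockout and 290 ± 155 CPM in WT lines, 2.76-fold lower in knockout lines (log2 fold change -1.47, SE 0.26, edgeR adjusted p = 0.0068). The call held in all 27 alternatives, and without WT replicate 3 the log2 fold change was -1.13 (edgeR adjusted p = 0.0035). WT replicate 3 was also the line with 419 CPM of summed fibroblast markers, whose part in its Ier3 level was not tested. Within 1 Mb of Ier3, in the major histocompatibility region, start 65 other tested genes. Of these 2 rose and 4 fell, beside 8.51% of all tested genes called in either direction, and their median log2 fold change was -0.06. Those that fell were the sialidase gene Neu1, Ddah2, the class I gene H2-Q4 and 4833427F10Rik, and those that rose were Stk19 and Ly6g6c. Ddah2, H2-Q4 and Stk19 were called in all 13 leave-one-out fits, Neu1 in 9 and Ly6g6c in 4. The transcript 4833427F10Rik, at 0.088 CPM in knockout and 0.73 CPM in WT lines on average, was called in 1 of the 12 such fits that tested it, that without WT replicate 2. H2-Q4 has near-identical relatives, so its value is uncertain.

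Ier2 (chromosome 8, 84661331 to 84662852), which encodes a nuclear regulator of transcription, had 52.2, 66.4 and 112 CPM in knockout lines and 68.7, 79.5 and 146 CPM in WT lines. In 4 of 7 knockout lines it lay below every WT line, but not in replicates 5, 6 and 7 (log2 fold change -0.33, SE 0.22, edgeR adjusted p = 0.37). The log2 fold change was -0.14 without WT replicate 3, and -0.54 on log2(TPM + 1) (limma adjusted p = 0.063). Ier5 (chromosome 1, 155096367 to 155099636), a relative of Ier2 that takes part in the heat shock response, leaned the other way without passing the test. It had 61.0, 111 and 147 CPM in knockout lines and 38.04, 79.9 and 125 CPM in WT lines, with WT replicates 2 and 3 below every knockout line (log2 fold change 0.50, SE 0.27, edgeR adjusted p = 0.26). The approximate 95% interval ran from -0.81 to 0.15 for Ier2 and from -0.10 to 1.11 for Ier5. An effect of handling of the cultures was not tested. Of 8 heat shock genes none was called by edgeR and none had an unadjusted p under 0.05. Their summed level was 4161 to 5061 CPM in knockout and 3366 to 5278 CPM in WT lines. Hspb1 (86.4 ± 51.8 CPM in knockout and 155 ± 89.0 CPM in WT lines) and Hspa8 (2762 ± 186 and 2416 ± 299 CPM) had the smallest p among them (edgeR adjusted p = 0.26 and 0.32).

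Zfp36 and Btg2 are known to limit the response rather than carry it on. Zfp36 (chromosome 7, 28376784 to 28379228) encodes tristetraprolin, which binds AU-rich elements and brings messages to decay. It had 20.4, 51.8 and 55.1 CPM in knockout lines and 21.7, 47.8 and 107 CPM in WT lines. Values fell into a low range of 20.4 to 26.1 CPM, with knockout replicates 2, 3 and 4 and WT replicates 1 and 6, and a range from 45.9 CPM up with the other 8 lines (log2 fold change -0.39, SE 0.38, edgeR adjusted p = 0.54, and -0.064 without WT replicate 3). Of 14 tested messages known to be bound by tristetraprolin, Il1a alone was called. Il1a, an alarmin of epithelium, was 0.281 to 190 CPM in knockout lines and 0.0539 to 0.528 CPM in WT lines (edgeR adjusted p = 0.016). Knockout replicate 1 held the highest value and replicate 6 lay within the WT range. Il1a was not called by limma-voom, without or with sample weights (adjusted p = 0.20 and 0.090), or by limma on log2(TPM + 1) (adjusted p = 0.072).

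Btg2 (chromosome 1, 134074865 to 134079155) encodes an antiproliferative partner of the CCR4-NOT deadenylase and is a known target of p53. It had 101, 134 and 267 CPM in knockout lines and 19.9, 66.3 and 116 CPM in WT lines. Among WT lines only replicate 4 reached the knockout range, and knockout replicates 1 and 7, at 267 and 259 CPM, stood apart from the other 5, which reached 142 CPM. The mean was 161 ± 71.6 CPM in knockout and 67.2 ± 32.9 CPM in WT lines. The difference missed the threshold (log2 fold change 1.26, SE 0.37, edgeR adjusted p = 0.051), and passed it in 7 of 27 alternatives, among them the fit without WT replicate 4 (1.48, edgeR adjusted p = 0.038), that without knockout replicate 2 (1.35, edgeR adjusted p = 0.045) and DESeq2 (adjusted p = 0.0079). Of 13 tested genes of the ZFP36, BTG and CCR4-NOT families 0 were called by edgeR, and 1 had an unadjusted p under 0.05. Cnot6l, a catalytic subunit of the deadenylase, had 76.8 ± 13.6 CPM in knockout and 115 ± 40.9 CPM in WT lines, and the core subunit gene Cnot2 96.8 ± 6.91 and 86.6 ± 6.61 CPM (edgeR adjusted p = 0.079 and 0.28).

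Of 9 AP-1 genes, Junb rose 1.63-fold and Atf3 was 3.65-fold lower in knockout lines (edgeR adjusted p = 0.030), with a median log2 fold change of -0.38. Atf3 was called in 6 of the 13 leave-one-out fits and Junb in all 13. The median was -0.24 without knockout replicate 4, -0.64 without knockout replicate 1, -0.63 without WT replicate 1 and -0.62 without WT replicate 6. Junb was 372 ± 48.9 CPM in knockout and 228 ± 51.5 CPM in WT lines without overlap (edgeR adjusted p = 0.019). On log2(TPM + 1) it was not called (limma adjusted p = 0.10), where it stood 0.70 above the median of all genes. Fos, the classical immediate early gene, had 16.4 CPM in knockout and 21.4 CPM in WT lines (edgeR adjusted p = 0.80). Of 44 other immediate and delayed early genes 0 rose and 3 fell, with a median of -0.14. That median was 0.01 without WT replicate 4, and -0.33 on log2(TPM + 1), where it was -0.19 for all genes. These were Trib1, a pseudokinase gene (51.2 ± 11.8 CPM in knockout and 147 ± 129 CPM in WT lines, no overlap, edgeR adjusted p = 0.032), F3, which encodes tissue factor (21.8 ± 13.2 and 74.6 ± 51.8 CPM, edgeR adjusted p = 0.032), and Rhob, which encodes a GTPase of endosomes (88.8 ± 42.5 and 186 ± 47.2 CPM, edgeR adjusted p = 0.035). Trib1 reached 402 CPM in WT replicate 3, the line with the highest Ier3, and without it and knockout replicate 2 the count of genes that fell was 3. Without knockout replicate 3 it was 0, without knockout replicate 1, 5 or 7 it was 1, and without knockout replicate 2 it was 5. Trib1, F3 and Rhob were called in 8, 9 and 5 of the 13 leave-one-out fits.

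Compared per transcript length, Ier3 led in WT lines and Myc in knockout lines. The mean level of Myc was 208 TPM in knockout and 151 TPM in WT lines, and that of Ier3 182 TPM in knockout and 574 TPM in WT lines. Ier3 lay above Myc in 6 of 6 WT lines, and Myc above Ier3 in 5 of 7 knockout lines. Btg2 was rank 3 in knockout lines at 84.3 TPM and rank 8 in WT lines at 41.5 TPM. Its neighbour in the knockout order, Ier2 (81.7 TPM), was not separable from it, since Btg2 was the higher in 3 of 7 lines. In WT lines the order below Ier2 (121 TPM) was Egr1 at 82.5 TPM, Zfp36 at 59.0 TPM, Nr4a1 at 47.7 TPM and Ier5 at 45.4 TPM, and each of the last 3 steps held in 3 of 6 lines, so these 4 genes had no order beyond their spread. In knockout lines Ier5 was at 54.9 TPM, Egr1 at 47.99 TPM, Zfp36 at 38.7 TPM and Nr4a1 at 22.3 TPM. Egr3 (13.1 TPM in knockout and 11.6 TPM in WT lines) and Egr2 (2.10 and 2.02 TPM) were lowest in both groups, and Egr2 lay below Egr3 in every line.

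The genes differed in how much they varied among lines of a group. The coefficient of variation of CPM was lowest for Myc, 11.6% in knockout and 18.2% in WT lines, and highest for Egr2 and Egr3, with 75.8% and 89.7% in knockout and 150% and 136% in WT lines. In all 10 genes it was lower among knockout than among WT lines, but the share of all tested genes with this direction was not counted. The gap was small for Ier2 (28.6% in knockout and 32.6% in WT lines) and Btg2 (44.6% and 48.9%). The difference in spread was not tested, nor was its dependence on WT replicate 3. In WT replicate 3 the level of 5 genes was the highest of its group (Egr2, Ier2, Ier3, Nr4a1 and Zfp36) and that of 3 the lowest (Myc, Ier5 and Btg2). Among knockout lines, replicate 4 was lowest in Egr2, Egr3, Ier5 and Nr4a1.

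With group means removed, 2 of 45 gene pairs were correlated across the 13 lines. Egr2 and Egr3 had a Pearson's r of 0.82 (permutation p = 0.0018, adjusted over 45 pairs 0.041) and a Spearman's rho of 0.88 (permutation p = 0.00056, adjusted 0.025). Without WT replicate 3 and knockout replicate 4, the 2 lines farthest from the median for Egr2, r was 0.78. Within groups r was 0.80 in knockout and 0.84 in WT lines. Ier2 and Zfp36 had an r of 0.81 (permutation p = 0.0013, adjusted 0.041) and a rho of 0.80 (permutation p = 0.0024, adjusted 0.054). The r was 0.76 without the 2 lines farthest for Ier2, WT replicate 3 and knockout replicate 5. Within groups r was 0.75 in knockout and 0.86 in WT lines. On log2(TPM + 1) r was 0.77 for Egr2 and Egr3 and 0.82 for Ier2 and Zfp36, and neither passed the correction (permutation p, adjusted 0.069 for each). The CArG boxes printed above are in the windows of 1 gene of each pair, Egr2 and Zfp36. No windows were on hand for Egr3 and Ier2, so a motif shared within a pair could not be looked for. Myc had its highest r with Ier5 (0.73, permutation p = 0.012, adjusted 0.089), which was 0.65 without WT replicate 3 and knockout replicate 1. No pair with Myc passed the correction, and the signs of some depended on the lines used. Myc and Ier2 had an r of -0.29 over all lines, of 0.65 in knockout and -0.93 in WT lines, and of 0.20 without WT replicate 3 and knockout replicate 1. Myc and Egr2 had an r of -0.27 over all lines, of 0.65 in knockout and -0.89 in WT lines, and of 0.049 without those 2 lines. Myc and Ier3 had -0.59 over all lines and 0.19 without them. The difference between the groups was not tested.

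**Figure D4:**
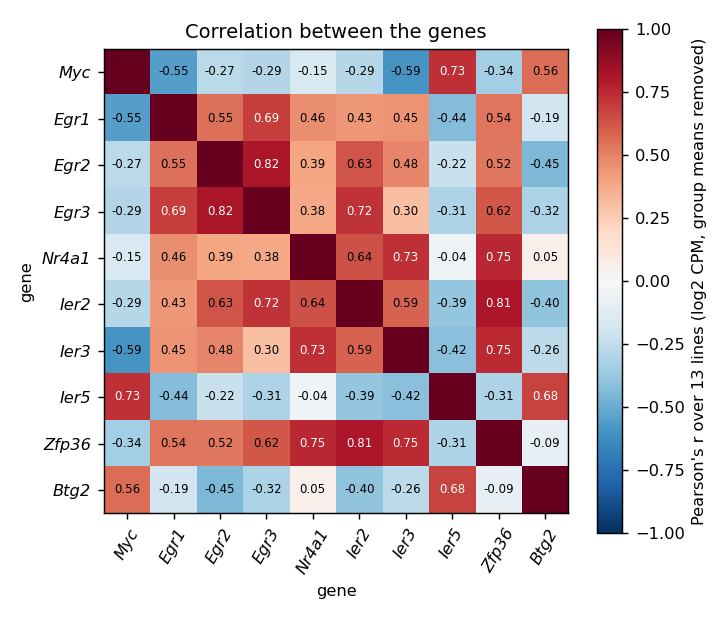
Pearson's r between the 10 genes over 13 lines, from log2 CPM with each group's mean removed, as colour from -1 to 1 and as printed value, with genes on both axes. Egr1 to Egr3, Nr4a1, Ier2, Ier3 and Zfp36 have positive values with each other, from 0.30 for Egr3 and Ier3 to 0.82 for Egr2 and Egr3, while Myc, Ier5 and Btg2 have positive values among themselves. Some of these rest on few lines, since without WT replicate 3 and knockout replicate 4 Egr2 has -0.11 with Ier3 and -0.15 with Nr4a1, and in knockout lines alone Myc has -0.07 with Btg2.

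Over tested genes, predicted genes left out, likeness to Myc was taken across the 13 lines with group means removed. Those most like Myc were Cog8 (Pearson's r 0.92), Cdipt (0.90) and Ttc39b (0.89). Those most like Egr1 were Arntl (0.92), which encodes the clock factor BMAL1, Dhx57 (0.91) and Azi2 (0.90). These are the highest values over the tested genes with predicted genes left out, and they describe these lines only.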

How the data were processed

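The deposited values per gene are expected counts that the authors made with RSEM. The submitters' processing notes name cutadapt and RSEM, and the builds mm10 and GRCm38. TPM values of the same genes were also deposited by the authors, from RSEM. Not given in the sources used here are the aligner, tool versions and strand setting. Reads that match several genes are shared among them by RSEM's model, which makes values of near-identical genes uncertain. The transcript column of the files holds RefSeq accessions, and positions are those of RefSeq on GRCm38.p6, found by symbol. No other annotated gene in the table overlaps any of the 10.

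Counts were rounded to whole numbers. Genes were kept with filterByExpr (13058), scaled by TMM and compared with edgeR's quasi-likelihood test with the genotype as the only term (edgeR 4.0.16, R 4.3.3). The SE is the log2 fold change over the square root of F, and the 95% intervals use it with a t quantile, so they are approximate. Correlations used log2 CPM (prior count 2) less the group mean, with 100000 shuffles of lines within groups, two-sided. The edgeR, limma-voom and DESeq2 fits were tried on simulated counts with the same dispersion for every gene. The genes here varied unequally among lines, so that trial does not show how the fits perform on these data. The closest 2 libraries, WT replicates 1 and 6, had a mean chi-square of 77.3 over genes, so no library was a repeat of another. The alternatives were other scalings, filters and thresholds, DESeq2 1.42.0, limma 3.58.1 on voom values and on log2(TPM + 1) and log2(TPM + 0.1), leaving out each line, and summing WT replicates 4 and 5. The fit without WT replicate 3 and knockout replicate 2 was added after seeing the data.

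The members, lists and naming rule were chosen with earlier results of these data known. The rule named the 10 genes, Mapk8 and Mapk9, and from each list up to 4 called genes, taken by adjusted p, or 2 genes by smallest p where none was called. It also named the tested genes within 1 Mb of Myc (Pvt1 alone) and the called genes within 1 Mb of Ier3. The last named were the 3 genes most like each of Myc and Egr1, predicted genes left out. Pa2g4, Max, Mycn, Mycl, Odc1, Ncl, Nab1, Nab2, Srf, Nr4a2, Nr4a3 and Fos were named after their values were seen.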

Additional observations from a re-analysis of the deposited data

Results flagged for a closer look

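In 2 of the 20 combinations of gene and group, the highest line was far from the others by Dixon's test at the 95% level. Chance alone gives about 1 in 20 where values are normally distributed, which was not checked for CPM. Both flags fell in the same line, so they are not independent. Ier3 was 595 CPM in WT replicate 3, and the next WT line was at 298 CPM. Egr2 was 12.96 CPM in WT replicate 3, and the next WT line was at 4.38 CPM. No knockout line stood apart in this way in any of the 10 genes.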

How the results depend on the processing

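No paired analysis was possible because the labels give no replicate numbers, and those used here only name the lines. Beside 566 genes higher and 545 genes lower in knockout lines, with 1 of the members each way, DESeq2 gave 1130 and 977 genes with 2 and 2 members, and limma-voom with sample weights 1410 and 1399 with 2 members higher. On log2(TPM + 1) the counts were 286 and 998, and on log2(TPM + 0.1) 322 and 981, with 0 members higher and 2 lower on both. At a threshold of 0.01 they were 96 and 116, with 0 members higher. Upper-quartile scaling, limma-voom and the fit without WT replicate 3 and knockout replicate 2 gave 2 members higher. Summing WT replicates 4 and 5 gave 405 genes higher and 406 lower, with Myc higher and Ier3 lower among the members. Genes that lost their call in that fit included Mlx, Nop16, Atf3, Rhob and 4833427F10Rik, and 3 of the 34 MYC targets rose. Leaving out 1 line gave 324 to 649 genes higher, 316 to 592 lower, and 1 to 2 members in each direction. The members added were Btg2 (higher) and Nr4a1 (lower), and the member lost was Myc. Correlated pairs numbered 2 with Pearson's r, 1 with Spearman's rho and 0 on log2(TPM + 1). Directions of members that were not called turned in some fits. The Egr1 log2 fold change was 0.29 and the Zfp36 log2 fold change 0.082 with sample weights, and Zfp36 had 0.051 without WT replicate 3 and knockout replicate 2. Leaving out 1 line gave an Egr2 log2 fold change of -0.069 to 1.48 and -0.55 to -0.064 for Zfp36. The Cnot2 log2 fold change was -0.0614 on log2(TPM + 1) and -0.0624 on log2(TPM + 0.1), and the Hspa8 log2 fold change was -0.028 on both. The cause of these changes was not tested. Egr2 had 1128 reads in knockout and 782 in WT lines, and Egr3 had 9651 and 6119. The SE of the log2 fold change was 0.90 for each of them.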
